A study of Homo sapiens with 6 samples.

Results

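The genes of the mitochondrial genome were taken as all genes that the deposited FPKM files place on chromosome MT, which gave 37 of the 58735 genes in the table. Of these, 13 encode mRNAs for subunits of the respiratory chain and ATP synthase, 2 encode the rRNAs of the mitochondrial ribosome and 22 encode tRNAs. They were followed in MDA-MB-231, an established human triple-negative breast cancer line, after treatment with *Salvia chinensis* Benth (SCH), a herb used in Chinese medicine. There were 3 SCH-treated samples (100 mg/l, 24 h) and 3 vehicle-treated samples (24 h), described in the series as biological repeats of wild type cells kept, per the labels, in RPMI-1640 with serum (the study's methods name DMEM for this line). RNA was purified on poly-T beads, made into libraries with a kit that does not mark the strand, and sequenced on an Illumina HiSeq instrument. A single line at a single dose and time was profiled, so the values describe that setting.

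Each vehicle-treated library held 20291379, 18714240 or 18334857 counts on genes, and each SCH-treated library 16836369, 17979434 or 18414924, in replicate order. SCH replicate 1 was the shallowest library, and it also had the lowest normalized count of the SCH group for most of the mitochondrial mRNAs. The line was checked against its markers, using normalized counts (CPM, counts scaled by the library size and its TMM factor). The mesenchymal markers VIM, CD44, AXL, CAV1 and FN1 were all present, with VIM at a mean of 1406 normalized CPM in the vehicle group and 957 in the SCH group. The hormone receptor genes ESR1 and PGR were near 0 (0.218 and 0 normalized CPM in the vehicle group), and the epithelial gene CDH1 was at 0.257. The other markers set as low were measurable, with the epithelial gene EPCAM at 17.01 normalized CPM in the vehicle group and 11.9 in the SCH group (lowered, log2 fold change -0.52) and the receptor gene ERBB2 at 71.3 and 87.3 (raised, 0.29), so their RNA was present in these cells. Among markers of other cells, the leukocyte gene PTPRC was at 1.99 in the vehicle group and 0.290 in the SCH group, the endothelial gene PECAM1 at 1.10 and 1.21, the fibroblast gene COL1A1 at 4.89 and 8.28, and DCN at 0 in both.

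The human mitochondrial genome is a small circular DNA that is transcribed from promoters on both strands into long RNAs covering many genes. Most mRNAs and the rRNAs in these RNAs are flanked by tRNAs, and RNase P and the endonuclease ELAC2 release them by cutting at the tRNA ends. The mRNAs then receive a poly(A) tail from MTPAP and are stabilised by the LRPPRC and SLIRP complex, so their levels can differ although they come from shared precursors. MT-ATP8 and MT-ATP6 share a single mRNA, as do MT-ND4L and MT-ND4, and MT-ND6 is the only mRNA gene read from the opposite strand. Fewer cells of a given state and less RNA per cell cannot be told apart in bulk RNA.

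The gene sequences below are those of GENCODE 29 transcripts (GRCh38), whose starts and ends matched the deposited table for all 37 genes. The overlaps of the paired reading frames are shown because reads inside them belong to both genes, and capitals mark the shared bases (46 in MT-ATP8 and MT-ATP6 at chrM:8515-8584, 7 in MT-ND4L and MT-ND4 at chrM:10748-10778, both on the plus strand).
ATP8/ATP6 overlap: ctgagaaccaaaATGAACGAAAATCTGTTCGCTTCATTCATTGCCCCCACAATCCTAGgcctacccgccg
ND4L/ND4 overlap: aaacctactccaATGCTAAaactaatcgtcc

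The last 30 bases are shown next for the 5 consecutive mRNA genes on which the largest mRNA decreases fell, and for 3 mRNA genes that did not pass the test. Capitals mark the stop codon, or the part of it that the DNA encodes where the poly(A) tail has to complete it. The windows are chrM:9178-9207 for MT-ATP6, chrM:9961-9990 for MT-CO3, chrM:10375-10404 for MT-ND3, chrM:10737-10766 for MT-ND4L, chrM:12108-12137 for MT-ND4, chrM:4233-4262 for MT-ND1 and chrM:8240-8269 for MT-CO2 on the plus strand, and chrM:14149-14178 for MT-ND6 on the minus strand.
MT-ATP6: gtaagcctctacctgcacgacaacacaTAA
MT-CO3: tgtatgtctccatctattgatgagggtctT
MT-ND3: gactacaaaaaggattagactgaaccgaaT
MT-ND4L: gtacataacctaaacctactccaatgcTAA
MT-ND4: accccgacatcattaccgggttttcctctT
MT-ND1: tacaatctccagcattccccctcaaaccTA
MT-CO2: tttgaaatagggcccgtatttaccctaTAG
MT-ND6: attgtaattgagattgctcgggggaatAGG
By the annotated gene lengths, an incomplete stop codon was found in 6 of the 13 mRNA genes. It was present in 3 of the 5 consecutive genes and in 3 of the other 8. The last base of the stop codon of MT-ATP6 is also the first base of MT-CO3, so its state depends on where the RNA is cut.

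After SCH treatment, mitochondrial mRNA took a smaller share of the library and mitochondrial rRNA a larger one. The 13 mRNA genes held 3.12%, 3.02% and 3.11% of all counts in the vehicle-treated samples and 2.47%, 2.79% and 2.81% in the SCH-treated samples. All 3 SCH-treated samples lay below all vehicle-treated samples, with means of 3.08% ± 0.0570 and 2.69% ± 0.195 (SD, n = 3 each). The 2 rRNA genes held 0.405%, 0.375% and 0.426% in the vehicle group and 0.521%, 0.616% and 0.706% in the SCH group, again without overlap, and the ratio of the means was 1.53. The 22 tRNA genes together held 0.0109%, 0.0109% and 0.0102% in the vehicle group against 0.0139%, 0.0131% and 0.0149% in the SCH group. The share of all 37 genes overlapped between the groups, as the classes moved in opposite directions (3.49% ± 0.0810 in vehicle and 3.32% ± 0.281 in SCH). The balance between the classes differed more than any of these sums, with 13.01, 12.42 and 13.70 rRNA counts per 100 mRNA counts in the vehicle group and 21.1, 22.1 and 25.1 in the SCH group. These shares are sums over the chosen genes and are given as a description, without a test.

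**Figure D1:**
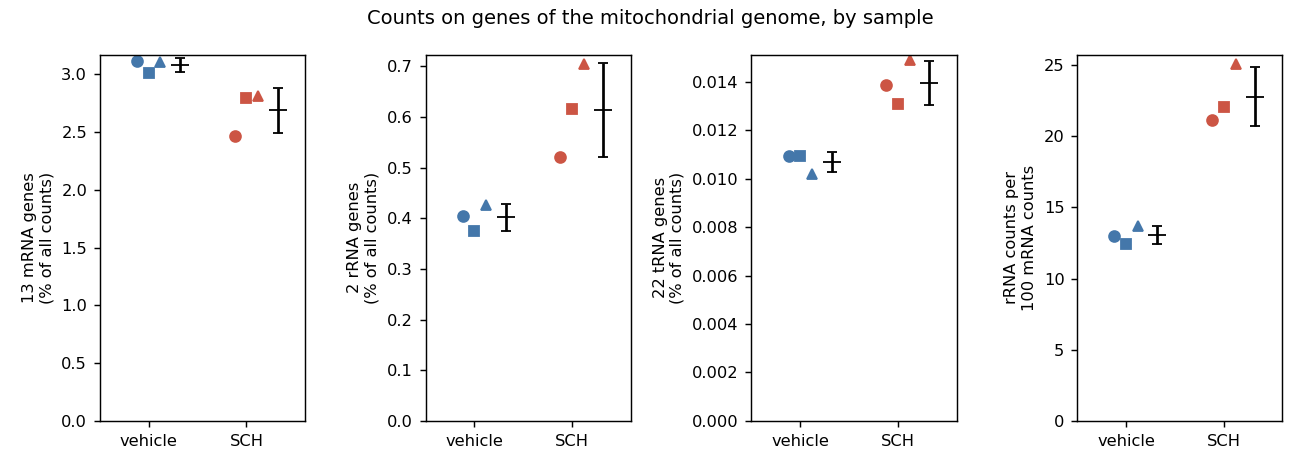
Share of all gene counts on the 13 mRNA, 2 rRNA and 22 tRNA genes of the mitochondrial genome (%), and rRNA counts per 100 mRNA counts, for each of the 3 vehicle-treated (blue) and 3 SCH-treated (red) samples; bars give the mean ± SD. In each panel the groups do not overlap, with SCH lower for mRNA and higher for rRNA, tRNA and their balance.

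Each gene was then tested with the quasi-likelihood method of edgeR over the 14736 genes that passed its filter, with p adjusted by Benjamini-Hochberg and a threshold of 0.05. Of the 13 mRNA genes, all of which were tested, 8 were lowered and 0 raised, and their median log2 fold change was -0.17, beside -0.0034 for all tested genes. The treatment changed much of the transcriptome, so the background was high. Over all tested genes 58.7% were called, 29.3% raised and 29.4% lowered. In the same 8 mRNA genes, every SCH-treated sample lay below every vehicle-treated sample, a state found in 31.3% of tested genes (62.4% for either direction). Without SCH replicate 1, 7 mRNA genes were lowered and 2 raised. By complex, the lowered genes were 4 of 7 for complex I, 1 of 1 for complex III, 2 of 3 for complex IV and 1 of 2 for complex V.

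The mRNA decreases were unequal along the genome and largest in the 5 consecutive mRNA genes from MT-ATP6 to MT-ND4 (chrM:8527-12137, 3611 bases), with log2 fold changes between -0.70 and -0.50, whereas the other 8 mRNA genes lay between -0.27 and 0.26. The 0.26 was that of MT-ATP8, which had few counts and shares its mRNA with MT-ATP6, and the next highest was MT-CO2 at 0.03. The tRNA genes inside the stretch from MT-ATP6 to MT-ND4 were not called and too variable to give a direction. MT-TG, between MT-CO3 and MT-ND3, had a log2 fold change of 0.36 (SE 0.277, edgeR adjusted p = 0.282) and MT-TR, between MT-ND3 and MT-ND4L, one of 0.74 (SE 0.432, edgeR adjusted p = 0.149), both on at most 63 counts per sample. In MT-TG the SCH-treated samples lay on both sides of the narrow vehicle range, SCH replicate 1 far above it, and without that sample the value was -0.09. In MT-TR they also lay on both sides, and its value was 0.31 without SCH replicate 1 and 1.27 without vehicle replicate 2, where it passed the threshold, as it did without SCH replicate 2. The group of mRNA genes was noticed after the values were seen and is described without a test. The 5 mRNA genes held 45.4%, 45.3% and 45.8% of the mitochondrial mRNA counts in the vehicle-treated samples and 36.7%, 37.7% and 38.2% in the SCH-treated samples. Taken singly, MT-ATP6, MT-CO3 and MT-ND4 had a lower share in every SCH-treated sample. The groups overlapped in the share of MT-ND3 (means of 3.55% in vehicle and 3.06% in SCH) and of MT-ND4L (2.34% and 2.04%). The summed level of the 5 genes went from 14540 ± 270.4 to 9767 ± 899 normalized CPM (SD, n = 3), and that of the other 8 genes from 17438 ± 257 to 16238 ± 1012. SCH-treated samples lay below vehicle-treated samples in both sums.

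**Figure D2:**
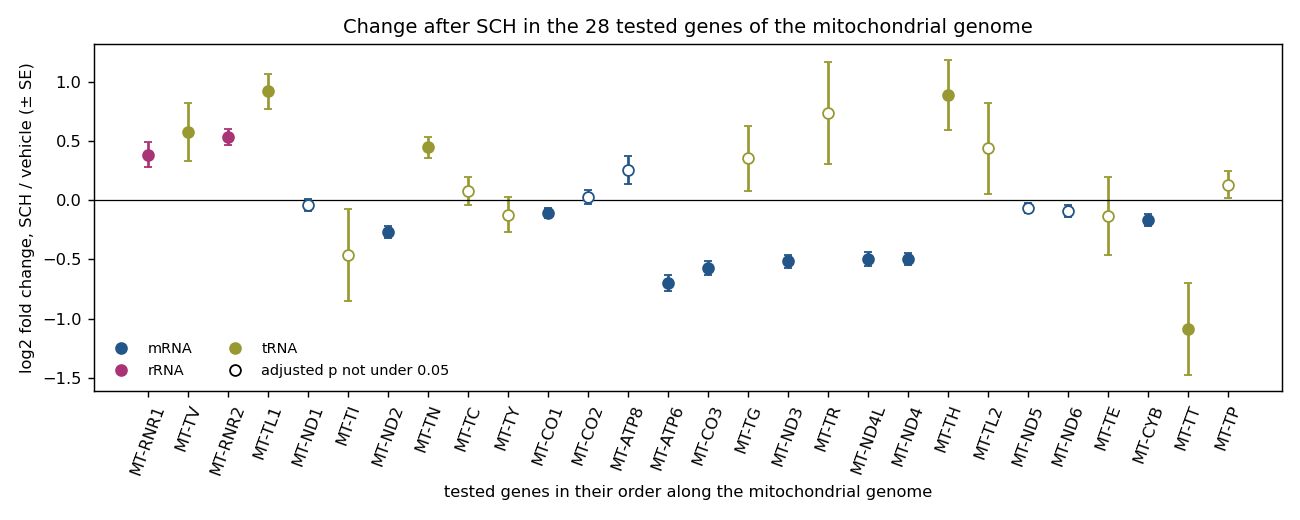
Log2 fold change (SCH over vehicle, ± SE, edgeR) of the 28 tested mitochondrial genes in their order along the genome, coloured by class, with filled points for an adjusted p under 0.05. The 5 mRNA genes from MT-ATP6 to MT-ND4 lie between -0.70 and -0.50, the tRNA genes MT-TG (0.36) and MT-TR (0.74) among them have wide errors and did not pass the test (-0.09 and 0.31 without SCH replicate 1), and MT-RNR1 and MT-RNR2 lie above 0.

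Both mRNA genes of complex V encode parts of ATP synthase, and they differed in their values. MT-ATP6, a subunit of the proton channel, was at 4157, 4114 and 3968 normalized CPM in the vehicle group and 2138, 2667 and 2734 in the SCH group. The groups were far apart, with a log2 fold change of -0.70 (SE 0.064, edgeR adjusted p = 2.15e-09), a decrease of 38.4%, the largest among the 13 mRNA genes. MT-ATP8, which lies upstream in the same mRNA, was at 10.2, 8.47 and 9.05 normalized CPM in the vehicle group and 9.80, 11.2 and 12.1 in the SCH group. Those groups overlapped, and its log2 fold change of 0.26 (SE 0.117) did not pass the threshold (edgeR adjusted p = 0.0636). With MT-ATP8 the per-length level was also far lower than that of its partner, at 43.1 FPKM against 5790 in the vehicle group. The annotated gene is only 207 bases long and shares 46 of them with MT-ATP6, as printed above, so the reads counted for it come from a short stretch. Other short genes were not as low, with MT-ND4L (297 bases) at 2433 FPKM and MT-ND3 (346 bases) at 3168 in the vehicle group. The few counts of MT-ATP8 are thus a poor measure of the mRNA that it shares with MT-ATP6, and the reason for them was not tested. MT-ATP8 did not pass the threshold in 12 of 17 alternatives. It was raised with library size alone as the scaling (0.36), with limma at either pseudocount, and without vehicle replicate 1 or SCH replicate 1. MT-ATP6 was lowered in each of the alternatives, between -0.75 and -0.59.

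Complex IV, cytochrome c oxidase, has its 3 catalytic core subunits encoded in the mitochondrial genome. MT-CO3 followed MT-ATP6, the gene it overlaps by 1 base, with 4256, 4240 and 4442 normalized CPM in the vehicle group and 2514, 3104 and 3094 in the SCH group. The groups did not overlap, and the log2 fold change was -0.57 (SE 0.060, edgeR adjusted p = 2.35e-08). MT-CO1, the subunit that reduces oxygen, was at 6342, 6243 and 6222 in the vehicle group and 5601, 5924 and 5918 in the SCH group. Although these groups did not overlap either, its decrease of 0.11 on the log2 scale (SE 0.044) was small and close to the threshold (edgeR adjusted p = 0.0382), and it kept its call in 7 of 17 alternatives (-0.0054 and adjusted p = 0.919 with library size alone). MT-CO2, the subunit that receives electrons from cytochrome c, was at 3323, 3261 and 3365 in the vehicle group and 2944, 3558 and 3635 in the SCH group. Its SCH-treated samples lay on both sides of the vehicle range, and the log2 fold change of 0.03 (SE 0.059) did not pass the test (edgeR adjusted p = 0.716). Without SCH replicate 1, the low sample, MT-CO2 was raised by 0.12 (adjusted p = 0.00774).

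Complex I, NADH dehydrogenase, has 7 mitochondrial subunits, of which 4 were lowered. MT-ND4, part of its proton-pumping arm, was at 4357, 4198 and 4242 normalized CPM in the vehicle group and 2790, 3096 and 3193 in the SCH group (log2 fold change -0.50, SE 0.050, edgeR adjusted p = 9.99e-09). MT-ND4L, its partner on the same mRNA, was at 762, 657 and 825 in the vehicle group and 522, 513 and 556 in the SCH group (log2 fold change -0.50, SE 0.061, edgeR adjusted p = 2.65e-07). Both genes of this mRNA fell, and in neither did the groups overlap. MT-ND3, a small subunit encoded just before them, was at 1171, 1019 and 1213 in the vehicle group and 774, 776 and 829 in the SCH group (log2 fold change -0.52, SE 0.056, edgeR adjusted p = 3.12e-08). MT-ND2 lies outside the 5 consecutive mRNA genes and fell less, with 2887, 2740 and 2752 in the vehicle group and 2090, 2432 and 2436 in the SCH group (log2 fold change -0.27, SE 0.053, edgeR adjusted p = 1.49e-04). These 4 genes kept their direction and call in every alternative tried.

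The remaining complex I subunits did not pass the test. MT-ND1 was at 1323, 1268 and 1284 normalized CPM in the vehicle group and 1151, 1331 and 1285 in the SCH group (log2 fold change -0.04, SE 0.051, edgeR adjusted p = 0.508). MT-ND5 was at 1496, 1429 and 1506 against 1362, 1426 and 1445 (log2 fold change -0.07, SE 0.045, edgeR adjusted p = 0.221). Both pairs of groups overlapped. MT-ND6, the light-strand mRNA, was at 396, 380 and 354 in the vehicle group and 354, 352 and 356 in the SCH group, which also overlapped (log2 fold change -0.09, SE 0.049, edgeR adjusted p = 0.123). It passed the threshold without vehicle replicate 3 (-0.13, adjusted p = 0.0114). As the kit does not mark the strand and the strand setting of the counting is not given, reads of MT-ND6 and of heavy-strand RNA across it cannot be told apart. Its share of the mitochondrial mRNA counts was 1.18% in the vehicle group and 1.37% in the SCH group. MT-CYB, cytochrome b and the only mitochondrial subunit of complex III, was at 1937, 1877 and 1901 in the vehicle group and 1557, 1784 and 1741 in the SCH group. Its groups did not overlap, and it was lowered by a log2 fold change of -0.17 (SE 0.050, edgeR adjusted p = 0.00572). The call was kept in 14 of 17 alternatives and lost with library size alone (-0.07, adjusted p = 0.251) and with limma at either pseudocount. Leaving out 1 sample at a time moved the value between -0.20 and -0.11.

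**Figure D3:**
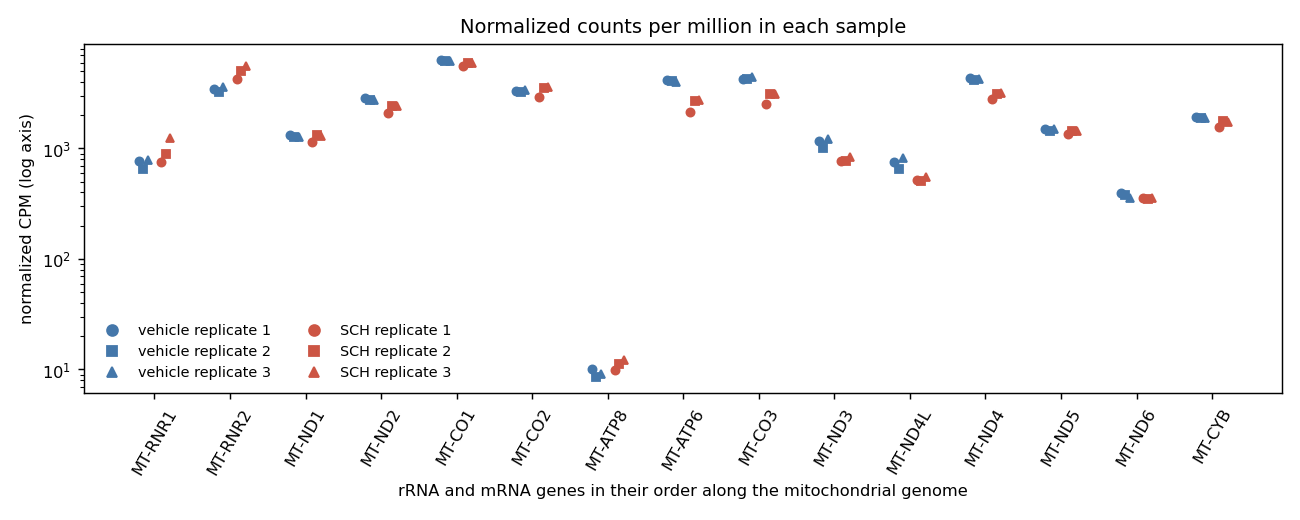
Normalized CPM (log axis) of the 2 rRNA and 13 mRNA genes in each of the 6 samples, in genome order, with vehicle in blue and SCH in red and a marker shape for each replicate. MT-ATP6, MT-CO3, MT-ND3, MT-ND4L and MT-ND4 separate by group, and the SCH-treated samples of MT-CO2, MT-ND1, MT-ND5 and MT-ND6 fall within or around the vehicle range.

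Comparison of levels between genes was made per length, in FPKM. In the vehicle group MT-ATP6 was the most abundant mRNA (5790 ± 145 FPKM), followed by MT-CO3 (5316 ± 134), MT-CO2 (4686 ± 70.2) and MT-CO1 (3929 ± 41.8). The distance between each of these neighbours exceeded their SDs. In the SCH group MT-CO2 stood first at 4796 ± 522 FPKM. MT-CO1 (3661 ± 105), MT-CO3 (3596 ± 408) and MT-ATP6 (3582 ± 454) followed within their spread of each other. MT-ND3 came next by its mean in both groups, at 3168 ± 283 FPKM in vehicle and 2225 ± 80.9 in SCH. Close to it, within the spread, were MT-ND4 in vehicle (2992 ± 57.8) and MT-ND2 (2161 ± 178) and MT-ND4 (2132 ± 141) in SCH. MT-ND5 (788 and 756 FPKM), MT-ND6 (693 and 655) and MT-ATP8 (43.1 and 51.7) were the lowest in both.

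Ratios of genes within a sample do not depend on the library scaling. The ratio of MT-ATP6 to MT-CO2, which lie on either side of MT-ATP8, was 1.26, 1.27 and 1.18 in FPKM in the vehicle-treated samples and 0.729, 0.753 and 0.755 in the SCH-treated samples. At the other end of that stretch, the ratio of MT-ND4 to MT-ND5 was 3.83, 3.86 and 3.70 in the vehicle group and 2.69, 2.85 and 2.91 in the SCH group. Both ratios were lower in every SCH-treated sample, including SCH replicate 1. The pairs were chosen after the values were seen and carry no test. Across the 13 mRNA genes, which share the libraries and are not independent replicates, the log2 fold change was correlated with the vehicle FPKM at r = -0.65 (rho = -0.63), with gene length at r = 0.08, with GC content at r = -0.01 and with position at r = -0.11. Several of these values rested on MT-ATP8, since without it they were -0.55 for the vehicle FPKM, 0.38 for length, 0.41 for GC content and -0.08 for position (n = 12).

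**Figure D4:**
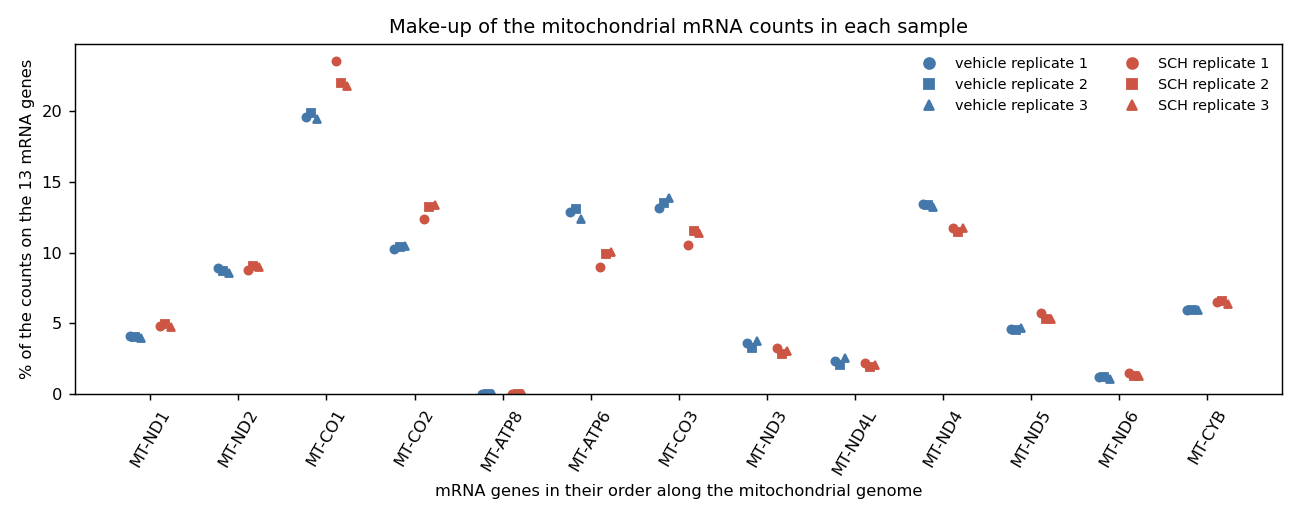
Share of each mRNA gene in the counts on the 13 mitochondrial mRNA genes (%), for each vehicle-treated (blue) and SCH-treated (red) sample in genome order. Without overlap of the groups, MT-ATP6, MT-CO3 and MT-ND4 take a smaller share after SCH, and MT-ND1, MT-CO1, MT-CO2, MT-ATP8, MT-ND5, MT-ND6 and MT-CYB a larger one. The shares are parts of a whole, so a larger share is not a higher level, and MT-CO1 and MT-CYB were lowered in normalized CPM.

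Both rRNA genes were raised, whereas 8 of the 13 mRNA genes were lowered. MT-RNR2, the 16S rRNA of the large ribosomal subunit, was at 3454, 3257 and 3602 normalized CPM in the vehicle group and 4275, 5054 and 5602 in the SCH group. The groups did not overlap, a state with SCH above that 31.1% of tested genes showed, and the log2 fold change was 0.53 (SE 0.066, edgeR adjusted p = 2.82e-07), an increase of 44.8%. MT-RNR1, the 12S rRNA of the small subunit, was at 763, 648 and 795 in the vehicle group and 755, 895 and 1232 in the SCH group. Here SCH replicate 1 lay inside the vehicle range and SCH replicate 3 well above it, so the groups overlapped despite a log2 fold change of 0.39 (SE 0.104, edgeR adjusted p = 0.00284). In DESeq2 this gene did not pass the threshold (0.40, adjusted p = 0.161), and leaving out 1 sample at a time moved it between 0.18 and 0.54. Mature mitochondrial rRNAs carry at most short tails, so poly-T purified libraries count the part that was captured and not all rRNA.

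The tRNA genes gave few counts. They are 59 to 75 bases long, shorter than the cDNA fragments that the labels say were selected. Reads counted for them can therefore come from precursors or from fragments that reach into neighbouring genes. Calls for tRNA genes thus refer to these counts and not to the level of mature tRNA. In 9 of the 22 genes the mean count was at most 9 and they were not tested (MT-TF, MT-TQ, MT-TM, MT-TW, MT-TA, MT-TS1, MT-TD, MT-TK and MT-TS2). Of the 13 tested, 4 were raised (30.8%, near the 29.3% of all tested genes), 1 was lowered and 8 did not pass (MT-TI, MT-TC, MT-TY, MT-TG, MT-TR, MT-TL2, MT-TE and MT-TP). MT-TC did not pass in 16 of 17 alternatives and passed in the other. Leaving out 1 sample at a time moved MT-TC between -0.04 and 0.28. Only 5 tRNA genes reached a mean count of 100, and the 4 highest held 83.4% of all tRNA counts. The 2 raised genes that kept their call in each alternative are printed in full, MT-TL1 (chrM:3230-3304, plus strand), which directly follows MT-RNR2, and MT-TN (chrM:5657-5729, minus strand).
MT-TL1: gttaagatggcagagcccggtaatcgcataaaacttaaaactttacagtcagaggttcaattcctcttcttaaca
MT-TN: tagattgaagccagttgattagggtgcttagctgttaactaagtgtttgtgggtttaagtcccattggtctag

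MT-TL1, a leucine tRNA, was at 4.05, 5.68 and 3.99 normalized CPM in the vehicle group and 8.20, 8.43 and 9.36 in the SCH group. The groups did not overlap, and the log2 fold change was 0.92 (SE 0.147, edgeR adjusted p = 1.03e-05). MT-TN, the asparagine tRNA, was at 39.2, 36.9 and 41.0 in the vehicle group and 59.7, 43.1 and 57.4 in the SCH group (log2 fold change 0.45, SE 0.089, edgeR adjusted p = 1.37e-04), with no overlap. It lies between MT-ND2 and MT-CO1 on the strand opposite to theirs, and the 8 tRNA genes of that strand held 84.4% of the tRNA counts. Without strand information, reads of these tRNAs and of the antisense precursor cannot be told apart. MT-TV, the valine tRNA between the rRNA genes, had only 24 to 40 counts per sample (log2 fold change 0.58, SE 0.245, edgeR adjusted p = 0.0457), and it kept its call in 8 of 17 alternatives. MT-TH, the histidine tRNA, was at 2.72, 3.18 and 1.35 normalized CPM in the vehicle group and 7.40, 2.79 and 3.42 in the SCH group. Its groups overlapped, and its log2 fold change of 0.89 (SE 0.297, edgeR adjusted p = 0.0129) fell to 0.36 without SCH replicate 1 (adjusted p = 0.276). MT-TT, the threonine tRNA, was the only one lowered, from 1.08, 1.17 and 1.01 to 0.516, 0.215 and 0.789 (log2 fold change -1.09, SE 0.390, edgeR adjusted p = 0.0201). It rested on 4 to 21 counts per sample and kept its call in 13 of 16 alternatives. The call was lost in DESeq2 and without vehicle replicate 2 or SCH replicate 2. Leaving out 1 sample at a time moved the value between -1.56 and -0.71.

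Copies of mitochondrial sequence in the nuclear genome can take reads from their parent genes. By name, 407 such pseudogenes were in the table, of which 42 had a count and 4 were tested. Their counts came to 1.34% of those on the mitochondrial genes, and 99.4% of them fell on 3 copies. MTATP6P1 (GRCh38 chromosome 1, 633696 to 634376), whose sequence is 98.5% identical to MT-ATP6 over 681 bases, had 6.85% of its parent's count and a log2 fold change of -0.65 (SE 0.10), beside -0.70 in MT-ATP6. MTND2P28 (chromosome 1, 629640 to 630683, 98.4% identical) had 7.60% of the count of MT-ND2 and a log2 fold change of -0.31, beside -0.27. MTCO1P12 (chromosome 1, 631074 to 632616) had 0.55% of the count of MT-CO1 and did not pass the test (log2 fold change -0.23, edgeR adjusted p = 0.103), with -0.03 without vehicle replicate 1 and -0.41 without vehicle replicate 2, where it passed the threshold. MTND4P12 had a mean of 19.3 counts and a log2 fold change of -0.97 (edgeR adjusted p = 0.0388) with overlapping groups, a call kept in 6 of 15 alternatives (-0.47 and adjusted p = 0.368 without vehicle replicate 2), and MTCO3P12 was not tested. How reads matching both were counted is not given in the sources used here, and adding the counts of the copies to those of their parents changed no mRNA call.

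Nuclear genes that act on the mitochondrial genome were followed as lists, to be read against the 29.4% lowered and 29.3% raised among all tested genes. Their counts depended on the scaling. The 12 lists together had 95 lowered and 14 raised genes, and 65 lowered and 35 raised with library size alone, where all tested genes gave 3295 lowered and 5519 raised in place of 4332 and 4318. For transcription, 5 of 10 tested genes (50%) were lowered and 0 raised, with a median log2 fold change of -0.11. POLRMT, the mitochondrial RNA polymerase, was at 131, 136 and 119 normalized CPM in the vehicle group and 107, 99.5 and 102 in the SCH group (log2 fold change -0.33, SE 0.057, edgeR adjusted p = 3.40e-05), with no overlap. TFB2M, which opens the promoter with it, fell by 0.38 on the log2 scale (SE 0.072, edgeR adjusted p = 8.00e-05), and TFB1M, a methyltransferase of the 12S rRNA, by 0.69 (SE 0.132, edgeR adjusted p = 9.22e-05). TFAM, which packages the DNA and starts transcription, was at 139, 133 and 146 in the vehicle group and 122, 125 and 128 in the SCH group (log2 fold change -0.15, SE 0.052, edgeR adjusted p = 0.0163). TFAM kept its call in 11 of 17 alternatives, and with library size alone it was at -0.05 (adjusted p = 0.446).

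Of the RNA processing and stability list, 16 of 22 tested genes (72.7%, beside 29.4% of all tested genes) were lowered and 1 raised, and the median was -0.30. LRPPRC was at 202, 202 and 229 normalized CPM in the vehicle group and 171, 184 and 176 in the SCH group (log2 fold change -0.25, SE 0.054, edgeR adjusted p = 3.29e-04). Its partner SLIRP was at 92.0, 77.1 and 91.4 against 62.5, 63.2 and 65.7 (log2 fold change -0.44, SE 0.065, edgeR adjusted p = 3.11e-06). In both the SCH-treated samples lay below the vehicle-treated samples. The largest decreases that met the naming rule were in PTCD2 (log2 fold change -0.81), a protein that acts on MT-CYB RNA, KIAA0391 (-0.59), the nuclease subunit of mitochondrial RNase P, and FASTKD3 (-0.59). FASTKD5, which takes part in maturing mRNAs that lack a tRNA at an end, was the one raised (0.19). Of the enzymes that modify mitochondrial rRNA and tRNA, 12 of 21 (57.1%) were lowered and 1 raised (median -0.24), led by the pseudouridine synthase PUS1 (-0.97), QTRT1 (-0.59) and TRNT1 (-0.58), which adds the CCA end of tRNAs. NSUN3, a tRNA methyltransferase, was raised (0.30), a call kept in 16 of 17 alternatives. Leaving out 1 sample at a time moved NSUN3 between 0.20 and 0.36.

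**Figure D5:**
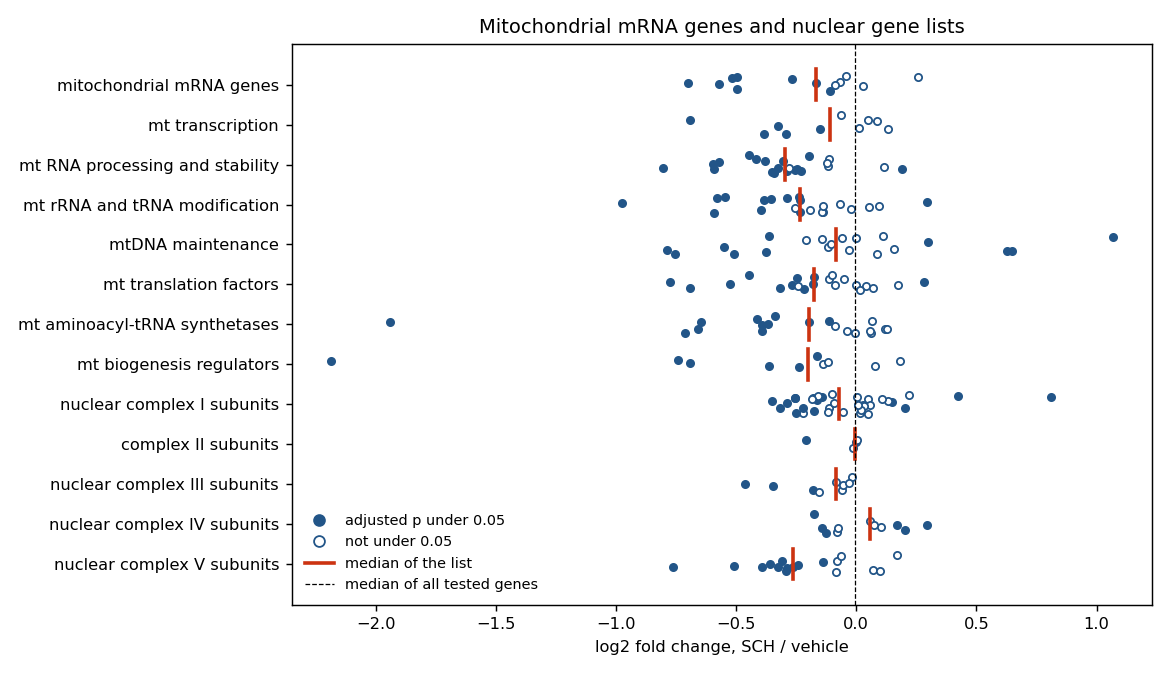
Log2 fold change (SCH over vehicle, edgeR) of the 13 mitochondrial mRNA genes and of each tested gene in 12 nuclear lists, with filled points for an adjusted p under 0.05, a red bar for each list's median and a dashed line for the median of all tested genes (-0.0034). The processing list has a median of -0.30 and the complex IV list one of 0.06.

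Of the genes of mtDNA maintenance, 4 of 20 were raised (20%, below the 29.3% of all tested genes) and 6 lowered (30%, near the 29.4% of all tested genes), with a median of -0.08. The highest was RRM2B, a subunit of ribonucleotide reductase that supplies deoxynucleotides and a known p53 target, at 17.7, 17.4 and 23.1 normalized CPM in the vehicle group and 40.0, 42.9 and 39.1 in the SCH group (log2 fold change 1.07, SE 0.090, edgeR adjusted p = 5.18e-10). POLG, the catalytic subunit of the mitochondrial DNA polymerase, was at 97.7, 96.1 and 91.9 against 161, 138 and 142 (log2 fold change 0.63, SE 0.059, edgeR adjusted p = 3.27e-09). By contrast TWNK, the helicase of the same replisome, was at 67.7, 68.1 and 63.0 in the vehicle group and 42.9, 36.2 and 39.0 in the SCH group (log2 fold change -0.75, SE 0.068, edgeR adjusted p = 1.67e-09). The groups did not overlap in any of these genes. SLC25A4, an ADP/ATP carrier, was also raised (0.65), and RNASEH1 (-0.79) and the single-strand binding protein SSBP1 (-0.55) were lowered.

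The translation factors were lowered in 10 of 21 genes (47.6%, beside 29.4% of all tested genes) and raised in 1 (median -0.17). MRRF, the ribosome recycling factor, had a log2 fold change of -0.69, MRPL58, a peptidyl-tRNA hydrolase of the ribosome, of -0.53 and TSFM, an elongation factor, of -0.45, whereas GFM2, which acts in recycling, was raised (0.28). Of the mitochondrial aminoacyl-tRNA synthetases, 11 of 19 (57.9%) were lowered and 0 raised (median -0.20). FARS2, the phenylalanine enzyme, was at 18.7, 17.8 and 17.5 normalized CPM in the vehicle group and 3.96, 5.37 and 4.68 in the SCH group, a wide separation (log2 fold change -1.94, SE 0.118, edgeR adjusted p = 2.16e-12). EARS2 (-0.71) and WARS2 (-0.66) followed.

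Of the 10 regulators of mitochondrial biogenesis, 6 were lowered (60%, beside 29.4% of all tested genes) and 0 raised (median -0.20). PPARGC1B, a coactivator of nuclear receptors, was at 13.2, 12.7 and 12.3 normalized CPM in the vehicle group and 3.10, 2.36 and 2.94 in the SCH group (log2 fold change -2.19, SE 0.137, edgeR adjusted p = 3.55e-12). Its relative PPRC1 (-0.74) and the transcription factor MYC (-0.69) were lowered too. PPARGC1A, the best known coactivator of the family, was at 4.61, 4.62 and 4.78 in the vehicle group and 3.78, 4.56 and 4.36 in the SCH group. The difference was small against its error (log2 fold change -0.14, SE 0.156, edgeR adjusted p = 0.466).

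The nuclear subunits of complexes I, III, IV and V, which assemble with the mitochondrial ones, were lowered in 28 of 73 tested genes (38.4%, beside 29.4% of all tested genes) and raised in 7 (9.59%, beside 29.3%), with a median of -0.08. In complex I, 11 of 36 were lowered (30.6%, near the share of all tested genes) and 4 raised (11.1%, median -0.07), with NDUFA9 (-0.35), NDUFB7 (-0.32) and NDUFS8 (-0.29) lowered and NDUFA2 (0.42), NDUFA8 (0.20) and NDUFA6 (0.15) raised. In complex III, 3 of 9 were lowered (33.3%) and 0 raised (median -0.08), namely CYC1, cytochrome c1 (-0.46), UQCR11 (-0.35) and the iron-sulfur subunit UQCRFS1 (-0.18). In complex IV, 3 of 11 were raised and 3 lowered (27.3% each, close to the shares of all tested genes), with a median of 0.06, including NDUFA4 (0.29), COX6C (0.17) and COX4I1 (-0.13). Complex V had the highest share lowered of these complexes, 11 of 17 (64.7%), with 0 raised (median -0.26). Its membrane ring gene ATP5MC1 was at 120, 122 and 108 normalized CPM in the vehicle group and 67.2, 68.5 and 70.2 in the SCH group, without overlap (log2 fold change -0.76, SE 0.057, edgeR adjusted p = 8.34e-11), and ATP5F1D (-0.51) and ATP5MC2 (-0.39) were lowered as well. Complex II, which has no mitochondrial gene, had 1 of 4 lowered, SDHB (-0.21), and a median of -0.01. Of 17 alternatives, COX4I1 kept its call in 8, NDUFA6 in 11, COX6C in 14, and SDHB and UQCRFS1 in 16 each, the exception for these last genes being library size alone.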

How the data were processed

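The authors deposited raw counts per gene and FPKM values for each of the 6 samples. Per the submitters' processing notes, CASAVA 1.8, HISAT2 2.0.5, featureCounts 1.5.0-p3 and DESeq2 1.20.0 were used, with the build GRCh38 (hg38). The strand setting, the treatment of reads with several matches and the filters are not given in the sources used here. The deposited FPKM values were proportional to count over length within 1% for genes of at least 100 counts. For the counts, edgeR 4.0.16 was run in R 4.3.3 (TMM, filterByExpr, quasi-likelihood test, SCH against vehicle, no covariates, Benjamini-Hochberg over 14736 genes), and SE is the absolute log2 fold change over the square root of F. Alternatives used DESeq2 1.42.0, limma 3.58.1 on log2(FPKM + 1) and log2(FPKM + 0.1), other scalings and filters, a replicate block, a threshold of 0.01 and each sample left out. The edgeR fit was also run on simulated counts, where 94.8% of changes of 1 on the log2 scale and 76.8% of changes of 0.5 were recovered. Few genes were changed there and all had the same dispersion, unlike these data with 58.7% of tested genes called, so the scaling was not checked by it. Tables, figures and alignments of copies were made with Python 3.11.15 and Biopython 1.88.

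All 37 mitochondrial genes were named, with POLRMT, TFAM, TFB2M, LRPPRC, SLIRP, TWNK, POLG and PPARGC1A, the 5 nuclear copies with the highest mean count, and in each list up to 3 raised and 3 lowered genes with the largest change among called genes without overlap of the groups and with 100 or more counts on average. The members, lists and rule were chosen with earlier results of these data known, and the group of 5 consecutive mRNA genes and the ribosomal protein list after their values were seen. No 2 libraries were copies of each other. P-values measure the spread between the samples, whose separate culture rests on the series' wording.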

Additional observations from a re-analysis of the deposited data

How the results depend on the processing

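The decreases of MT-ATP6 (log2 fold change -0.75 to -0.59), MT-CO3 (-0.61 to -0.47), MT-ND3 (-0.59 to -0.41), MT-ND4L (-0.58 to -0.39), MT-ND4 (-0.53 to -0.39) and MT-ND2 (-0.30 to -0.17) and the increases of MT-RNR2 (0.45 to 0.64), MT-TL1 (0.84 to 1.11) and MT-TN (0.37 to 0.59) kept direction and call in every alternative. No called result changed sign. Some genes that did not pass the test changed sign in some alternatives, among them MT-ND1 (-0.08 to 0.06), MT-ND5 (-0.10 to 0.04), MT-CO2 (-0.02 to 0.13), MT-TC (-0.04 to 0.28) and MT-TG (-0.09 to 0.60). The count of raised mRNA genes went from 0 to 1 (MT-ATP8) with library size alone and with limma at either pseudocount, each of which left 6 lowered in place of 8. With library size alone, the median of all tested genes was 0.099 and that of the mRNA genes -0.07 in place of -0.17, 62.6% of changed genes were raised in place of 49.9%, and 35 genes of the nuclear lists were raised in place of 14 and 65 lowered in place of 95. A pseudocount of 1 FPKM, which shrinks low genes, kept the calls of PPARGC1B (-0.69), FARS2 (-1.25), PTCD2 (-0.45) and KIAA0391 (-0.26) at smaller values. The lowered tRNA count went from 1 to 0 with at least 10 counts in every sample (MT-TT was then not tested) and in DESeq2. The raised rRNA count went from 2 to 1 in DESeq2 and with limma at either pseudocount (MT-RNR1). Apart from the low-count filter and this pseudocount, the cause was not tested.

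Leaving out 1 sample at a time gave 7809 to 8489 changed genes, 7 to 9 lowered and 0 to 2 raised mRNA genes with a median log2 fold change of -0.20 to -0.11, 2 raised rRNA genes throughout, 2 to 4 raised tRNA genes (2 without vehicle replicate 3) and 0 to 1 lowered (0 without vehicle replicate 2 or SCH replicate 2), and 13 to 15 raised and 81 to 100 lowered genes of the nuclear lists. Without SCH replicate 1 both MT-CO2 (0.12) and MT-ATP8 (0.34) were raised, and without vehicle replicate 1 MT-ATP8 (0.34). The ratio of SCH to vehicle shares stayed at 0.854 to 0.910 for mRNA, 1.41 to 1.64 for rRNA and 1.26 to 1.35 for tRNA. With the replicate number as a block, 8705 genes changed, and MT-CO1 (adjusted p = 0.0754) and MT-TV (0.0555) lost their calls. No pairing by number was seen, as the deviations of same-numbered samples correlated at 0.046, -0.022 and 0.022. With 3 samples per group these values cannot exclude that samples were handled in pairs. Low counts left 9 of 22 tRNA genes untested, and a floor of 3 counts is a counting limit only. The reason for these low counts was not tested.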

Other observations

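The nuclear genes for the proteins of the mitochondrial ribosome, which carries both mitochondrial rRNAs, were lowered in 43 of 78 tested genes and raised in 5, with a median log2 fold change of -0.18, beside 29.4% lowered and 29.3% raised among all tested genes. The list was chosen after the values were seen and has no test. The lowest was MRPL24, a large-subunit protein, at 96.4, 97.6 and 87.2 normalized CPM in the vehicle group and 54.0, 52.5 and 53.6 in the SCH group (log2 fold change -0.81), followed by MRPL1 (-0.75) and MRPS34 (-0.70). The groups did not overlap in MRPL24. The raised genes were MRPL53 (0.72), MRPS24 (0.46), MRPS18A (0.24), MRPL40 (0.24) and MRPL41 (0.17). The summed level of all 78 genes was 5175 ± 143 normalized CPM in the vehicle group and 4316 ± 69.2 in the SCH group (SD, n = 3), while the summed level of both rRNAs went from 4173 ± 249 to 5938 ± 902.

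Outside the naming rule because its mean count was under 100, NDUFA13, a complex I subunit, was at 3.49, 3.29 and 3.49 normalized CPM in the vehicle group and 6.19, 6.55 and 5.26 in the SCH group (log2 fold change 0.81, edgeR adjusted p = 1.19e-04), and it was picked after its values were seen.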
